A study of Mus musculus with 6 samples.

Results

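Interferon-stimulated genes were examined in primary mouse microglia with and without the adaptor Dap12, which is encoded by Tyrobp. The 36 genes were listed by name, and each was represented by the probe set with the highest mean signal over the 6 arrays among probe sets annotated with exactly 1 gene symbol. All 36 had such a probe set, out of 18193 genes on the array, and all 36 passed the filter on low signals, which left 12875 genes. RNA came from 3 samples labelled Dap12-ko and 3 labelled wt, with 1 array per sample, and each sample is called a culture here. The labels give no strain, age, treatment or pooling of animals, and no way of making the deletion. Nor do they say whether separate animals were used for each culture, so the spread behind every p-value here is that between cultures and may be technical. Below, cultures are numbered within their group by order of deposit, and a number pairs nothing across the groups. Sample titles carry joined numbers, except for wild-type culture 2 and Dap12-deficient culture 3, which carry a single number. Whether joined numbers mean pooled animals or pooled cultures is not given.

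Interferons are secreted by cells that sense viral or bacterial nucleic acids. Type I interferons bind the receptor made of Ifnar1 and Ifnar2, whose kinases Jak1 and Tyk2 activate transcription factors such as Stat2. With Irf9, Stat2 takes part in a complex that binds the interferon-stimulated response element (ISRE) in promoters, while type II interferon acts on the gamma-activated sequence (GAS). Microglia, the macrophages of the brain, express many of the induced genes at a basal level, and the resulting proteins block viral entry, degrade viral RNA or tag proteins with Isg15.

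Tyrobp, which checks the labels, read 5584, 7271 and 5396 in wild-type cultures, against 125, 96.4 and 96.2 in Dap12-deficient ones. It fell by 5.64 on the log2 scale (SE 0.20, adjusted p = 8.14e-07 in limma). All differences here are Dap12-deficient minus wild-type, on the scale log2(signal + 16), which understates those of dim genes. All 19 measured markers of microglia and macrophages passed the filter on low signals, and their summed signal was 39005 to 54105 in wild-type and 32360 to 45069 in Dap12-deficient cultures, from Siglech (mean 23.7) to Csf1r (mean 7353). Marker lists of other cells were measured too, and a sum does not by itself show that such cells were present. Their summed signals are given in wild-type and then in Dap12-deficient cultures. They were 7714 to 11204 and 3835 to 8935 for 13 oligodendrocyte and myelin markers (Myrf lowest at a mean of 23.4, Mbp highest at 3478). For 14 astrocyte markers they were 636 to 1056 and 621 to 1651 (Gjb6 5.16, S100b 194), and for 10 fibroblast markers 3448 to 4034 and 3785 to 5189 (Pdgfrb 3.89, Vim 3331). The sums were 434 to 539 and 336 to 453 for 10 neuronal markers (Slc17a7 6.86, Map2 190) and 2487 to 2770 and 1765 to 2196 for 8 dendritic cell markers (Ccr7 2.19, Fscn1 2277). Most of the dendritic cell sum came from Fscn1 and most of the fibroblast sum from Vim. The filter left out 3 of 8 dendritic cell, 2 of 10 fibroblast, 1 of 14 astrocyte and 1 of 10 neuronal markers. Below the filter were 4 of 6 endothelial markers (64.7 to 99.2 and 60.4 to 93.1, Pecam1 1.29, Kdr 35.6), 6 of 10 markers of T, B and natural killer cells (204 to 284 and 122 to 200.02, Gzmb 1.91, Ighm 129) and 4 of 6 neutrophil markers (24.4 to 49.0 and 23.6 to 47.9, Ltf 1.86, Mpo 8.97). In bulk RNA such as this, fewer cells of a type and less RNA per cell cannot be told apart.

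No interferon-stimulated gene passed the threshold of an adjusted p under 0.05 in limma, and the genes lay on both sides of 0. Passing were 0 of 36, with adjusted p between 0.279 and 0.999, against 0.0074% of all 27022 probe sets tested. At an unadjusted p under 0.05 there were 2 of 36, against 9.63% of all genes with 1 probe set each. They were Mx2, higher (4.76% of all genes), and Ifi27l2a, lower (4.87%). Mx2 was tested only through the group in which it was high, as its wild-type mean of 5.13 was under the filter of 8.51. The signals were lower on average in Dap12-deficient cultures for 20 members and higher for 16, against 54.8% of all genes lower. The median log2 difference was -0.10 over the members and -0.03 over all tested genes. The members' SEs ran from 0.19 to 0.39 and the 95% intervals of 34 held 0, while 24 lay wholly within 1 log2 unit of 0. With the deposited scaling, these intervals thus held most members to less than a 1-unit change. They are not adjusted for the number of genes and do not show that members are alike in the 2 groups. The direction counts depend on scaling: with a common median signal on all arrays 31 members were lower, 5 higher and their median was -0.35, but the median of all genes moved to -0.23 and 76.0% of them were lower. The members with an unadjusted p under 0.05 were then 14 (38.9%), against 17.4% of all genes, and 22 intervals held 0. Relative to all genes the members' median was then -0.12, against -0.07 with the deposited scaling. The counts also depend on single cultures. Without Dap12-deficient culture 2, 28 members were lower (median -0.24) and 11 (30.6%) had an unadjusted p under 0.05, against 12.1% of all genes. Lower were 18 without wild-type culture 2 (median 0.00092), 17 without Dap12-deficient culture 3 (median 0.011) and 24 without wild-type culture 3 (median -0.23).

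**Figure D1:**
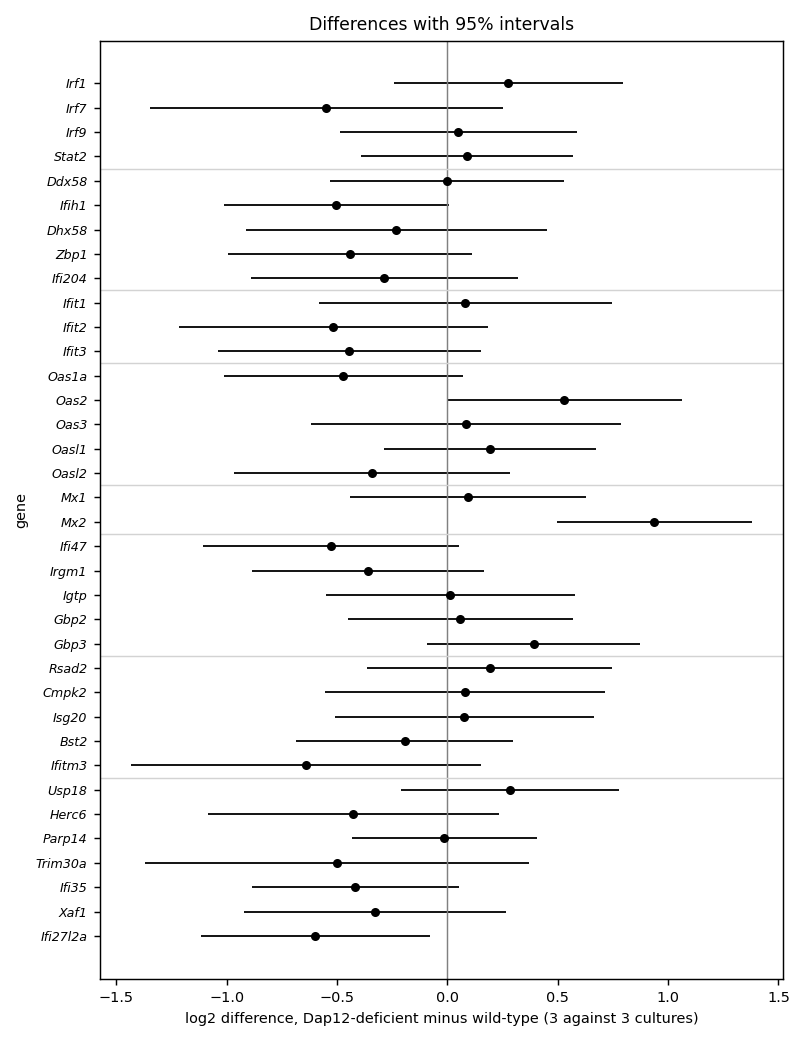
Log2 difference of each of the 36 interferon-stimulated genes, Dap12-deficient minus wild-type (x axis, on the log2(signal + 16) scale), with genes on the y axis in blocks by role. Points are differences of 3 against 3 cultures and bars are 95% intervals from limma. The intervals of 34 genes cross 0, and Mx2 at 0.94 and Ifi27l2a at -0.60 are the exceptions. Mx2 was tested only through the group in which it was high.

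What the members had in common was a spread between cultures. The pooled SD of log2(signal + 16) within groups had a median of 0.36 over the members and 0.25 over all tested genes, and it was above the latter in 33 of 36 members. Genes with mean signals in the middle range of the members (199 to 570) had a median SD of 0.25 as well. The members' SDs ran from 0.14 for Parp14, an ADP-ribosyltransferase of macrophages, to 0.70 for Trim30a, a ubiquitin ligase gene that restrains NF-kB signalling. For 23 members the difference between the groups was smaller than this SD. The SD was larger among Dap12-deficient than among wild-type cultures in 30 of 36 members (83.3%), against 62.5% of all genes, with medians of 0.42 and 0.28. The trait was not particular to the members. The 44 further interferon-induced genes described below had a median SD of 0.31, with medians of 0.36 among Dap12-deficient and 0.25 among wild-type cultures. No test of these differences in spread was made.

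**Figure D2:**
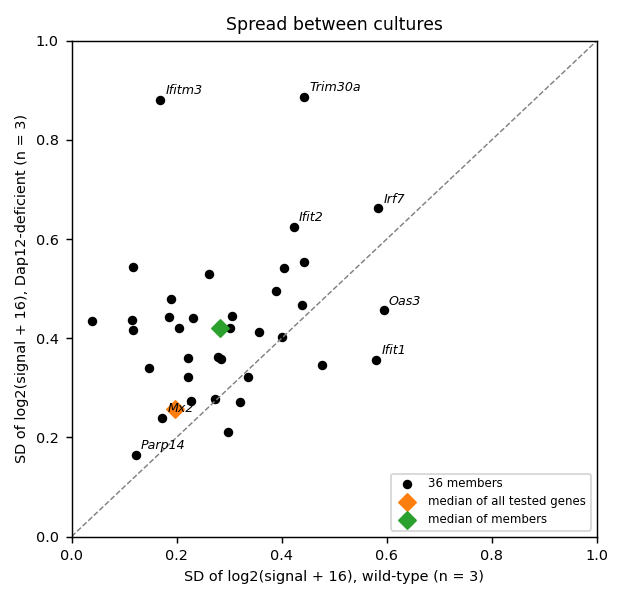
SD of log2(signal + 16) among the 3 wild-type cultures (x axis) and the 3 Dap12-deficient cultures (y axis) for the 36 members (black points), with the medians of members (green) and of all tested genes (orange). Of the 36 points 30 lie above the dashed line of equal SD, with Ifitm3 and Trim30a highest.

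The members tended to be high in the same cultures. Wild-type culture 2 had the highest signal of its group in 26 of 36 members, against 39.4% of all genes, and Dap12-deficient culture 2 in 28 of 36, against 33.7%. Both held for 22 members (61.1%), against 17.3% of all genes, and neither for 4, namely Irf1, Mx2, Gbp3 and Rsad2. Both also held for 8 of 19 markers of microglia and macrophages (42.1%) and 3 of 10 neuronal markers (30%). In the other marker lists the share was 0% to 16.7%. Averaged over the 36 members, log2(signal + 16) deviated from the mean of the 6 arrays by -0.06, 0.31 and -0.07 in wild-type cultures 1, 2 and 3 and by -0.17, 0.29 and -0.31 in Dap12-deficient cultures 1, 2 and 3. The same mean over all tested genes stayed between -0.05 and 0.03. The cultures of the 2 groups therefore overlapped, with a high culture in each and Dap12-deficient culture 3 the lowest, where 16 of 36 members had their lowest signal of all arrays against 20.7% of all genes. Group means of this average were 0.06 ± 0.21 for wild-type and -0.06 ± 0.31 for Dap12-deficient cultures (mean ± SD of 3 cultures). With a common median the counts for the cultures numbered 2 were 21 and 31 of 36, against 21.5% and 40.4% of all genes, and Dap12-deficient culture 1 was then the lowest (-0.38, against -0.37 for culture 3). With quantile normalization the counts were 27 and 28, against 35.8% and 34.6% of all genes. These cultures were singled out after their values were seen.

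The summed signals of some marker lists were also highest or lowest in culture 2 of each group. The 19 markers of microglia and macrophages had mean deviations of 0.04, 0.38 and 0.00405 in wild-type cultures 1, 2 and 3 and of -0.15, -0.00896 and -0.26 in Dap12-deficient cultures 1, 2 and 3. Their summed signal was highest in wild-type culture 2 (54105) and Dap12-deficient culture 2 (45069) of each group, as was that of T, B and natural killer cell markers (284 and 200.02). Astrocyte markers summed to 636 and 621 there and endothelial markers to 64.7 and 60.4, the lowest of each group. Oligodendrocyte markers were lowest in wild-type culture 2 (7714) but in Dap12-deficient culture 3 (3835). Neutrophil markers went opposite ways, highest in wild-type culture 2 (49.0) and lowest in Dap12-deficient culture 2 (23.6). Sums of neuronal, fibroblast and dendritic cell markers were not at an extreme in both. The part of the cell makeup in the members' spread was not tested. A mean over 3 Y-linked genes was 7.10, 7.35 and 7.36 in wild-type cultures, against 5.31, 5.85 and 6.19 in Dap12-deficient cultures on the log2 scale, without overlap between the groups. With that mean as a term in the limma fit 0 of 36 members passed, 17 were higher, 19 lower and their median was -0.03. Because the term separated the groups, this fit cannot tell genotype and the Y-linked signal apart. Single differences moved far, with Irf1 at 1.49 against 0.28 and Isg20 at 1.80 against 0.08 without the term. With the mean of the myelin genes as the term 0 passed, 9 were higher, 27 lower and the median was -0.18.

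**Figure D3:**
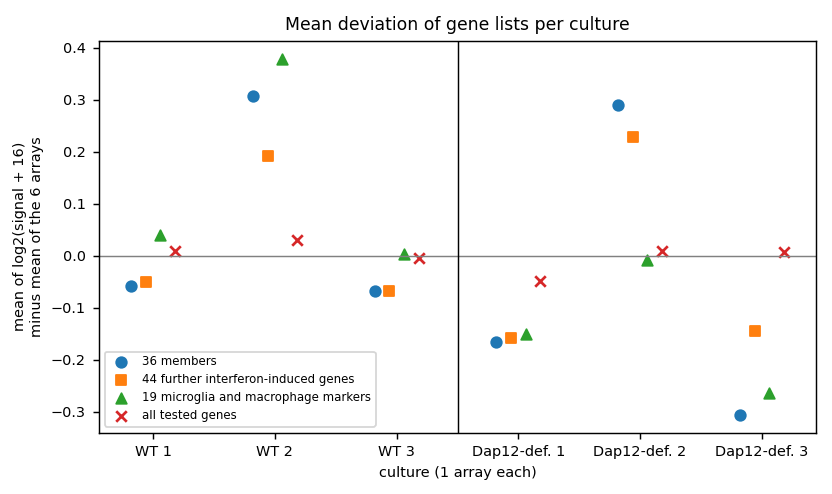
Mean of log2(signal + 16) minus the mean of the 6 arrays (y axis) in each culture (x axis, wild-type left of the line) for the 36 members, 44 further interferon-induced genes, 19 microglia and macrophage markers and all tested genes. The members stand at 0.31 and 0.29 in wild-type culture 2 and Dap12-deficient culture 2 and at -0.31 in Dap12-deficient culture 3, while all tested genes stay near 0.

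**Figure D4:**
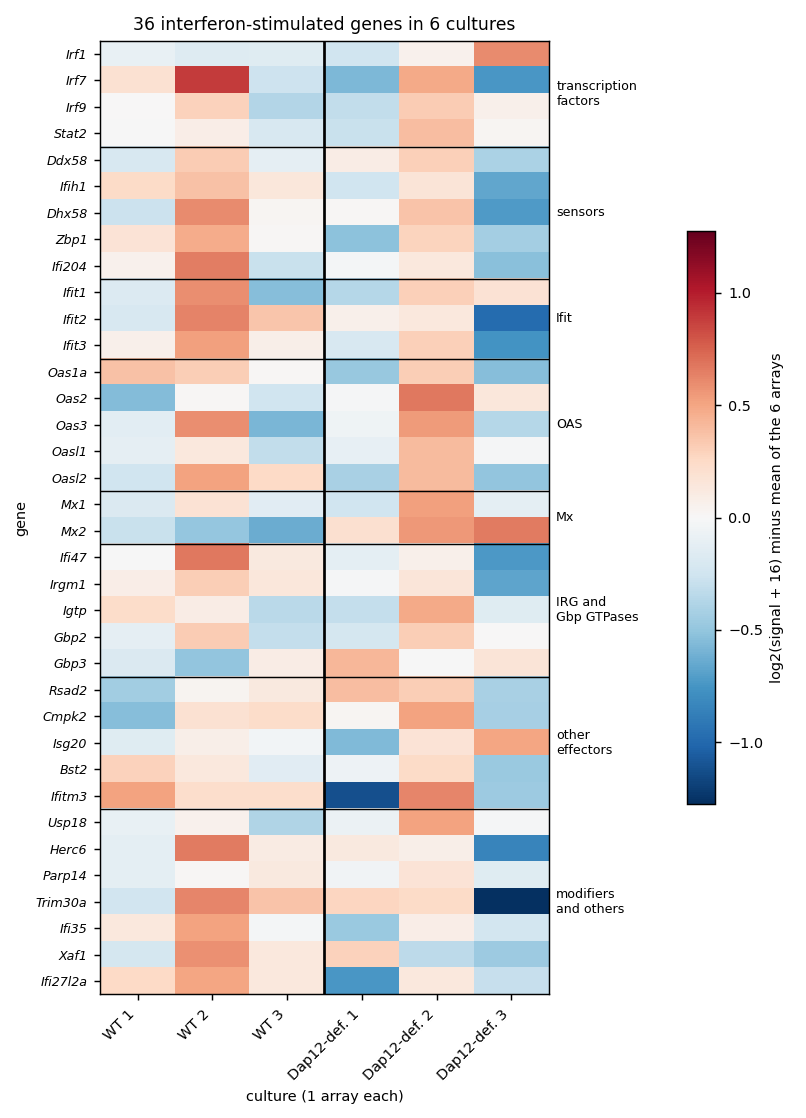
Each member's log2(signal + 16) minus its mean over the 6 arrays (colour), by gene (rows, in blocks by role) and culture (columns, wild-type left of the line). Columns of wild-type culture 2 and Dap12-deficient culture 2 are mostly above the mean (33 and 34 of 36 members), and that of Dap12-deficient culture 3 mostly below it (9 above).

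Promoter letters, which the selection by name did not use, were compared where a window was at hand. RefSeq promoter windows (GRCm38.p6, 250 bases before to 50 after the start) were found for 27 of 36 members. They were searched on both strands for the ISRE core (GAAA, any 2 bases, GAAA) and the GAS TTCNNNGAA, whose matches can overlap. At least 1 ISRE match was present in 15 of 27 members (55.6%), against 3.99% of 27025 genes, and a GAS match in 8 of 27 (29.6%), against 9.55%. Both were present in 4 (Oas1a, Igtp, Bst2 and Ifitm3) and neither in 8. The stretches below lie before the start of 6 members and are shown for the kinds of element that this module is known for, with matches in capitals. They come, in this order, from chr19:34640740-34640839 (plus strand), chr19:34583328-34583427 (plus), chr3:142620559-142620658 (plus), chr5:120907526-120907590 (minus), chr11:58199466-58199555 (plus) and chr11:53769879-53769977 (plus).
Ifit1: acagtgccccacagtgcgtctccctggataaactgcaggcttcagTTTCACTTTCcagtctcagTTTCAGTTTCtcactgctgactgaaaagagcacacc
Ifit3: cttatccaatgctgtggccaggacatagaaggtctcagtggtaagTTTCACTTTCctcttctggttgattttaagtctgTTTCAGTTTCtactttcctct
Gbp2: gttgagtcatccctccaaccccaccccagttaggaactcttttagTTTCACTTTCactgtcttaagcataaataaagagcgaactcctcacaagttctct
Oas1a: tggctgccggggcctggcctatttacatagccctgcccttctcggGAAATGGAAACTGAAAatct
Igtp: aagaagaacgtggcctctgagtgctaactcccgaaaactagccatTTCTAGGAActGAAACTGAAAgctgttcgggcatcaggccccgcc
Irf1: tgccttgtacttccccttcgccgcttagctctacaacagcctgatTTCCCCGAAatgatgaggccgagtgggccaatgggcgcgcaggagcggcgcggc
Ifit1 and Ifit3 each hold 2 ISRE matches in the reverse sense (TTTC, any 2 bases, TTTC), and Gbp2 holds 1. In Oas1a 2 ISRE matches overlap next to the start, and its GAS match lies outside the stretch shown. Igtp has a GAS followed by an ISRE, and Irf1, a gene known to respond to type II interferon, has a GAS alone. Members with an ISRE match had a median log2 difference of -0.00070 and a median SD of 0.36 (n = 15), and the 12 without one -0.34 and 0.40. With a GAS match the medians were -0.31 and 0.37 (n = 8), and without one -0.00070 and 0.39 (n = 19). A match to these letters is a description and no site of binding.

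Among the transcription factors of the response, Irf7, the factor that amplifies type I interferon production, varied most. It read 237, 393 and 167 in wild-type cultures, against 132, 293 and 116 in Dap12-deficient ones. The groups overlapped, with culture 2 highest in each, and the log2 difference was -0.55 (SE 0.36, adjusted p = 0.616 in limma). Irf1 was even in wild-type cultures (222 to 234) and ran from 208 to 390 in Dap12-deficient ones, with its highest signal in culture 3, where most members were low. Irf9 (0.05) and Stat2 (0.09), which take part in the ISRE-binding complex, had log2 differences near 0 with SEs of 0.24 and 0.22.

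The sensors of foreign nucleic acids had log2 differences from -0.50 to -0.00070, all 5 below 0 (54.8% of all genes were lower), with 0 passing. Ifih1, which encodes the long double-stranded RNA sensor MDA5, read 634, 697 and 591 in wild-type cultures, against 444, 602 and 331 in Dap12-deficient ones. Only Dap12-deficient culture 2 reached the wild-type range, and the log2 difference was -0.50 (SE 0.23, adjusted p = 0.476 in limma). Dhx58, which encodes the related helicase LGP2, gave 146, 281 and 184 against 182, 237 and 103. Its groups overlapped widely, with a log2 difference of -0.23 (SE 0.31). Ddx58, the gene of the RNA sensor RIG-I, stood at -0.00070 (SE 0.24), Zbp1, a sensor of Z-form nucleic acid that can trigger necroptosis, at -0.44 (SE 0.25) and Ifi204, a DNA-binding protein of the p200 family, at -0.29 (SE 0.27). Dimmer probe sets that passed the filter gave 0.15 each for Zbp1 and Dhx58 and 0.03 for Ddx58, opposite in sign to the brightest.

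The Ifit genes encode tetratricopeptide proteins that bind foreign RNA and block its translation. Ifit2 gave 724, 1300 and 1069 in wild-type cultures, against 877, 920 and 416 in Dap12-deficient ones. Dap12-deficient culture 3 was lowest and the other 2 lay within the wild-type range, with a log2 difference of -0.52 (SE 0.32, adjusted p = 0.593 in limma). Ifit3 was at -0.44 (SE 0.27) with the same culture lowest, at 421 against 624 to 1048 elsewhere. Ifit1 was at 0.08 (SE 0.30), and here Dap12-deficient culture 3 (253) was above 2 of the wild-type cultures (195 and 147). Probes could bind the near-identical copies of Ifit3 and Oas1a in the mouse genome, which was not tested.

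Members of the OAS family, which make 2'-5' oligoadenylates that activate RNase L or, as Oasl proteins, act without that activity, lay on both sides of 0. Oas1a was bright, at 2037, 1962 and 1593 in wild-type cultures, against 1122, 1961 and 1072 in Dap12-deficient ones. Dap12-deficient culture 2 lay within the wild-type range and the others below it, with a log2 difference of -0.47 (SE 0.24, adjusted p = 0.527 in limma). Oas2 went the other way, at 92.9, 146 and 118 against 142, 238 and 161. Only wild-type culture 2 reached into the Dap12-deficient range, and the log2 difference was 0.53 (SE 0.24, adjusted p = 0.471 in limma). Oas3 was dim and uneven, with 23.1, 48.7 and 12.6 against 25.4, 46.3 and 17.4. Its groups coincided, with culture 2 highest in each and a log2 difference of 0.08 (SE 0.32). Oasl1 stood at 0.19 (SE 0.22) and Oasl2 at -0.34 (SE 0.28).

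Mx2 was the only member whose cultures did not overlap between the groups in its brightest probe set. A dimmer probe set each of Herc6 (mean 35.9, lower) and Ddx58 (mean 5.26, higher, under the filter) did not overlap either. The Mx genes encode dynamin-like GTPases that trap viral components, and many inbred laboratory mice carry defective alleles of them. Mx2 gave 7.87, 4.69 and 2.81 in wild-type cultures, against 17.4, 26.6 and 29.9 in Dap12-deficient ones, all of them low signals (5.13 ± 2.55 and 24.6 ± 6.49, mean ± SD of 3 cultures). Every Dap12-deficient culture was above every wild-type one, with a log2 difference of 0.94 (SE 0.20, 95% interval 0.50 to 1.38), but the adjusted p in limma was 0.279. The size depends on the pseudocount, with 2.12 for a pseudocount of 1 and 0.36 for 64. That 1 of 36 members (2.78%) did not overlap compares with 16.4% of all tested genes, of which 7.54% were higher and 8.85% lower without overlap. Its wild-type mean, 5.13, was under the filter of 8.51, so it was tested only through the group in which it was high, and with a filter at the 60th percentile (24.7) it was not tested. With a common median 7 other members did not overlap either, all of them lower (Ifih1, Zbp1, Ifi47, Irgm1, Herc6, Ifi35 and Ifi27l2a), or 19.4% of members against 23.9% of all genes. With fewer arrays overlap is lost more easily: the count was 13 (36.1%) without Dap12-deficient culture 2, against 29.8% of all genes. It was 5 without culture 1 and 2 without culture 3 of that group, and 4, 4 and 6 without wild-type cultures 1, 2 and 3, or 5.56% to 16.7% of members against 23.9% to 28.4% of all genes. Mx1, its relative, was brighter at 163 to 292 and stood at 0.09 (SE 0.24).

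**Figure D5:**
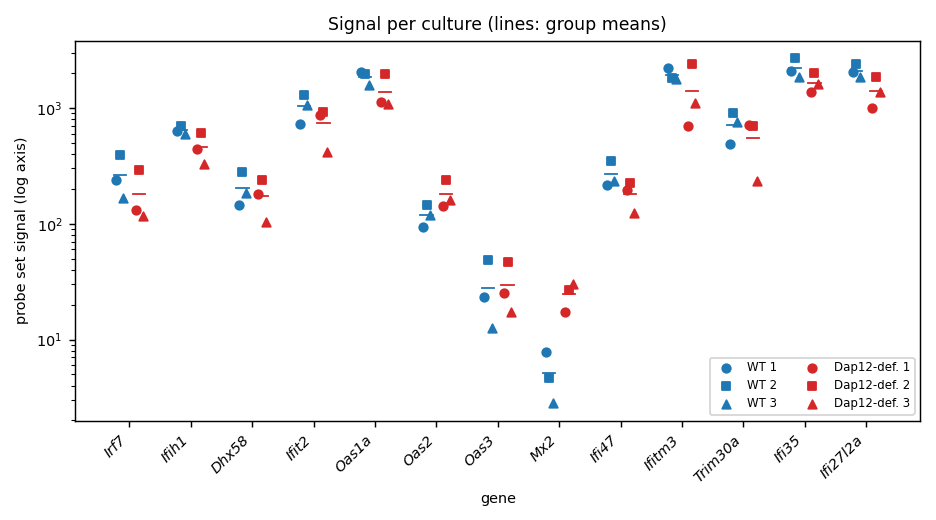
Probe set signal (y axis, log scale) of the 13 members described in full (x axis) in wild-type (blue) and Dap12-deficient (red) cultures, with marker shapes for cultures 1 to 3 and lines for group means (n = 3). Only for Mx2 do all red points lie above all blue ones, at signals under 30.

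The GTPases that respond strongly to type II interferon, which act on vacuoles of intracellular pathogens, had a median log2 difference of 0.01, with 3 higher, 2 lower and 0 of 5 passing. Ifi47, an immunity-related GTPase, gave 214, 351 and 235 in wild-type cultures, against 195, 225 and 123 in Dap12-deficient ones. Dap12-deficient culture 2 lay inside the wild-type range, and the log2 difference was -0.53 (SE 0.26, adjusted p = 0.509 in limma). Irgm1, a regulator of this family and of autophagy, stood at -0.36 (SE 0.24), and Igtp at 0.01 (SE 0.25). The guanylate-binding proteins stood at 0.06 for Gbp2 (SE 0.23) and 0.39 for Gbp3 (SE 0.22). Wild-type culture 2 was the lowest of all arrays for Gbp3 (159), unlike for most members.

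Of the other antiviral effectors, Ifitm3, a membrane protein that blocks fusion of viruses in endosomes, separated Dap12-deficient cultures most. It gave 2208, 1804 and 1796 in wild-type cultures, against 701, 2383 and 1110 in Dap12-deficient ones. Dap12-deficient culture 2 was the highest and culture 1 the lowest of all, and the log2 difference was -0.64 (SE 0.36, adjusted p = 0.557 in limma). Without Dap12-deficient culture 2 it was -1.11 with an adjusted p in limma of 0.0822, the smallest of any member in any setting tried. Rsad2, whose product viperin makes a chain-terminating nucleotide, was among the brightest members at 1382 to 2478 and stood at 0.19 (SE 0.25). Its other 2 probe sets gave -0.32 and -0.21, so its direction depends on the probe set. Cmpk2, the nucleotide kinase encoded next to Rsad2, was at 0.08 (SE 0.29), the exonuclease gene Isg20 at 0.08 (SE 0.26) and Bst2, whose product tetherin holds budding virions at the cell surface, at -0.19 (SE 0.22). The dimmer probe set of Cmpk2 (mean 24.3) gave -0.27.

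Among modifiers and other induced genes 6 of 7 were lower on average (54.8% of all genes were lower), with a median log2 difference of -0.42 and 0 passing. Ifi27l2a, a small mitochondrial protein gene strongly induced by type I interferon, gave 2025, 2401 and 1860 in wild-type cultures, against 1002, 1862 and 1377 in Dap12-deficient ones. Only the highest Dap12-deficient culture, number 2, reached the lowest wild-type signal, and the log2 difference was -0.60 (SE 0.23, adjusted p = 0.416 in limma). Ifi35, which encodes a partner of Nmi, gave 2076, 2700 and 1863 against 1361, 2001 and 1599, with a log2 difference of -0.42 (SE 0.21, adjusted p = 0.519 in limma). Again Dap12-deficient culture 2 alone entered the wild-type range. Its 2 dimmer probe sets gave -0.33 and -0.16.

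Trim30a had the largest spread, at 491, 908 and 754 in wild-type cultures, against 709, 695 and 232 in Dap12-deficient ones. The low mean rested on culture 3 alone, with a log2 difference of -0.50 (SE 0.39, adjusted p = 0.673 in limma) that became 0.012 without it. A dimmer probe set (mean 484) gave 0.27 (SE 0.24). Herc6, the ligase that joins Isg15 to proteins in mice, was at -0.43 (SE 0.30), the apoptosis-linked gene Xaf1 at -0.33 (SE 0.27) and Parp14 at -0.01 (SE 0.19). Usp18, the protease that removes Isg15 and damps the type I receptor, was the only one of these that was higher on average, at 0.28 (SE 0.22). The dimmer probe set of Xaf1 (mean 10.4) gave 0.23, opposite in sign to the brightest. Those of Herc6 gave -0.44, -0.03 and -0.32, with the sign of its brightest. Over the 12 members with several probe sets, 7 of 15 further probe sets tested had the sign of the brightest one, and 0 passed.

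Of the pathway's other genes, 37 of 45 listed were measured and 30 tested, and 0 passed in either direction. At an unadjusted p under 0.05 in limma there were 3 of these 30, against 9.63% of all genes. The groups did not overlap for 10% of the 30 (Ifnar1 higher, Ifnar2 and Ptpn6 lower), against 16.4% of all genes. Interferon genes themselves were at or near the floor of the array. Ifnb1 gave 12.7, 17.5 and 2.502 in wild-type cultures, against 17.9, 6.13 and 10.3 in Dap12-deficient ones. No order between the groups could be read from these signals, with a log2 difference of 0.05 (SE 0.26). The other 8 measured interferon genes had mean signals of 1.22 to 12.8, with log2 differences of 0.23 for Ifnz (SE 0.25), 0.14 for Ifnab (SE 0.24) and -0.06 for Ifna1 (SE 0.24) among those tested.

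The chains of the type I receptor lay in opposite directions without overlap between the groups. Ifnar1 gave 145, 191 and 192 in wild-type cultures, against 411, 218 and 332 in Dap12-deficient ones. All 3 Dap12-deficient cultures were higher, with a log2 difference of 0.77 (SE 0.25, adjusted p = 0.350 in limma). Ifnar2 gave 963, 1061 and 712 against 405, 707 and 378, with a log2 difference of -0.89 (SE 0.26, adjusted p = 0.335 in limma). All 3 were lower, although the nearest cultures, at 712 and 707, almost touched. Neither passed. A second probe set of Ifnar1 gave 0.49, while 2 dimmer ones of Ifnar2 gave 0.14 and -0.012. Il10rb, a chain of the type III receptor, was at -0.20 (SE 0.19).

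Further down the pathway the kinases stood at 0.39 for Jak1 (SE 0.22), 0.12 for Jak2 (SE 0.22) and -0.07 for Tyk2 (SE 0.19). Of 13 measured genes of interferon induction 8 were higher and 5 lower, with the smallest p for the transcription factors Irf8 (-0.30, SE 0.19) and Irf5 (-0.35, SE 0.26) and the single-stranded RNA receptor Tlr7 (-0.42, SE 0.29). Among negative regulators the phosphatase Ptpn6 gave 617, 810 and 612 in wild-type cultures, against 414, 549 and 374 in Dap12-deficient ones. Its groups did not overlap, with a log2 difference of -0.60 (SE 0.21, adjusted p = 0.375 in limma). Socs3, which blocks cytokine receptor signalling, was at 0.39 (SE 0.27) and the repressor Irf2 at 0.22 (SE 0.19).

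A list of 53 further interferon-induced genes, 44 of them measured, was set beside the members. Of the 44, 0 passed in limma, 5 had an unadjusted p under 0.05 (3 higher, 2 lower; 9.63% of all genes), 26 were lower and 18 higher, and the median log2 difference was -0.10. Isg15 was not analysed here. Wild-type culture 2 and Dap12-deficient culture 2 were highest in their groups for 30 and 28 of 44, and for both groups in 21 of 44 (47.7%). The arrays of 6 of 44 (13.6%) did not overlap between the groups, against 16.4% of all genes. Nmi, an interferon-induced partner of Ifi35, gave 242, 252 and 273 in wild-type cultures, against 111, 197 and 103 in Dap12-deficient ones. All 3 Dap12-deficient cultures were lower, culture 2 least so, with a log2 difference of -0.88 (SE 0.24, adjusted p = 0.335 in limma). Trim34a, of the tripartite motif family, stood at -0.69 (SE 0.23) and Dtx3l, a ubiquitin ligase gene, at 0.49 (SE 0.20), each without overlap and with adjusted p of 0.362 and 0.431 in limma.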

How the data were processed

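Per the labels' protocols, RNA of the 6 cultures was purified by Trizol and then RNeasy, and biotin was added by a kit with a repeated amplification cycle. The deposited values are linear intensity values of 45101 probe sets made by the authors. GCOS is the tool listed in the submitters' processing notes. The sources used here do not give its version or algorithm, and detection calls were not used here. Trimmed by 2% at each end, the mean of an array was 100.0 throughout. Arrays had thus been scaled to 1 target, and values were used as deposited. Arrays have no sequencing depth, and their number limits the precision.

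From these, log2(signal + 16) was taken. Controls (64) were left out, and 27022 probe sets with a mean at or above the 40th percentile (8.51) were tested with limma 3.58.1 in R 4.3.3 (lmFit, eBayes with trend, no covariate, two-sided, Benjamini-Hochberg). Groups came from the labels. The fit was tested on simulated data with the means and spreads of these probe sets. It recovered 28.2% of changes of 1 log2 unit, 65.6% of 1.5 units and 83.7% of 2 units. Of the probe sets passing there, 3.33% were false. Most changes of 1 unit were thus missed, so 0 members passing does not exclude changes of that size. Genes were named through the platform annotation (34945 probe sets with 1 symbol, 932 with several, 9160 with none). Members and lists were chosen with earlier results of these data known. All 36 members are named. Signals of every culture are given where arrays did not overlap, where p was among the 8 smallest or the SD among the 6 largest of the members, and for pathway and further genes where singled out. Of those lists, the type I receptor chains, Ifnb1 and the 3 smallest p per list are named. Listed genes without a probe set of 1 symbol were not analysed here. Other promoter entries (Dhx58, Zbp1, Ifi204, Oas2, Mx1, Mx2, Usp18, Parp14, Ifi27l2a) were not used here. No probe set had a value shared by 2 arrays (0 of 45101). Figures used Python 3.11.15 with matplotlib 3.10.9. As alternatives, the pseudocount was 1 or 64, arrays were quantile normalized or brought to a common median, the filter was dropped or raised to the 60th percentile, and eBayes ran without trend or with a robust prior. Further ones were 1 probe set per gene, the mean of a gene's probe sets, no _x_at or _s_at probe sets, terms for Y-linked genes, myelin genes and the kind of title number, and leaving out each array.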

Additional observations from a re-analysis of the deposited data

How the results depend on the processing

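Passing members stayed at 0 of 36 in all 20 alternatives (0 of 35 at the 60th percentile, where Mx2 was not tested), with the lowest adjusted p of any member between 0.0822 and 0.693. The median difference ran from -0.35 (common median) to 0.011 (without Dap12-deficient replicate 3), and the median SD from 0.28 to 0.39. Probe sets passing were 2 as deposited, 3 without trend and 3 without _x_at and _s_at probe sets, 5 with a common median, 4 with 1 probe set per gene, 11 with the sex term and 5 with the myelin term, and 2 to 172 when leaving out 1 replicate (15 without Dap12-deficient replicate 1 and 172 without replicate 2). Members whose arrays did not overlap were 1 as deposited, 2 with quantile normalization (all genes 16.02%), 8 with a common median (all genes 26.3%), 0 with the filter at the 60th percentile and 2 to 13 when leaving out 1 replicate (all genes 23.9% to 29.8%). No paired analysis was possible because the labels give the groups no shared replicate numbers.

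No member's difference had passed, and several changed sign in places (log2 differences). Among them were some far from 0 (Ifitm3, Ifi27l2a, Trim30a, Ifi35, Gbp3 and Oasl2). All of these but Trim30a did so with the sex term, which separated the groups and cannot be told apart from genotype. The cause was not tested beyond each alternative's own construction. With a common median Irf9 was at -0.18, Stat2 -0.062, Ifit1 -0.15, Oas3 -0.058, Oasl1 -0.0042, Mx1 -0.14, Igtp -0.22, Gbp2 -0.18, Rsad2 -0.061, Cmpk2 -0.17 and Isg20 -0.13. With the myelin term Irf1 was at -0.13, Irf9 -0.34, Stat2 -0.19, Ddx58 0.060, Ifit1 -0.52, Oas3 -0.13, Oasl1 -0.015, Mx1 -0.15, Igtp -0.21, Gbp2 -0.26, Isg20 -0.52, Parp14 0.015 and Trim30a 0.055. With the sex term Oas3 was at -0.17, Oasl2 0.087, Gbp3 -0.047, Rsad2 -0.63, Ifitm3 0.48, Ifi35 0.074 and Ifi27l2a 0.25. With the mean of all probe sets Ddx58 was at 0.20, Rsad2 -0.11 and Cmpk2 -0.096. With quantile normalization Stat2 was at -0.0076, Ddx58 0.010 and Oas3 -0.0094, and with a pseudocount of 64 Ddx58 was at 0.0010. Leaving out 1 replicate, the range was -0.13 to 0.22 for Irf9, -0.086 to 0.25 for Stat2, -0.15 to 0.20 for Ddx58, -0.47 to 0.071 for Dhx58, -0.17 to 0.40 for Ifit1, -0.19 to 0.40 for Oas3, -0.15 to 0.25 for Mx1, -0.23 to 0.17 for Igtp, -0.083 to 0.24 for Gbp2, -0.17 to 0.31 for Cmpk2, -0.15 to 0.38 for Isg20, -0.10 to 0.059 for Parp14 and -0.76 to 0.012 for Trim30a.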
